A study of Mus musculus with 6 samples.

Results

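The genes described here are 7 SMAD genes (Smad1 to Smad7), the nuclear SMAD repressors Ski and Skil, and Pmepa1, which acts on SMADs at the receptor. They were picked by symbol from a table of 34745 genes. All 10 members were found, and all 10 passed the filter on low counts that left 13692 genes for testing. The RNA came from LSECs, the liver sinusoidal endothelial cells, a fenestrated endothelium between the blood and the hepatocytes. The mice labelled ECKO carry an endothelial knockout of Tgfbr2, the type II TGF-beta receptor, and their littermates labelled Tgfbr2f/f (f/f below) carry the floxed gene. Mice of both groups had been given the hepatotoxin CCl4, a common means of producing fibrosis, intraperitoneally for 6 weeks with 2 injections per week. Uninjured liver was not analysed here. Each genotype had 3 libraries. The sources used here do not give the promoter that drives the recombinase, the deleted part of Tgfbr2, the strain, age and sex of the mice, or how the cells were isolated. They also do not tie libraries to mice, and the p-values therefore cover only the variation among the 6 libraries, which may be technical.

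SMADs carry the signal of TGF-beta family receptors to the nucleus. Smad2 and Smad3 are phosphorylated by TGF-beta and activin receptors, and Smad1 and Smad5 by BMP receptors, including the ALK1 and BMP9 pair of endothelium. Both kinds join Smad4 to bind DNA. Smad6 and Smad7 are inhibitory SMADs whose genes are themselves switched on by BMP and TGF-beta signals, Ski and Skil hold SMAD complexes in a repressed state, and Pmepa1 keeps Smad2 and Smad3 from the receptor. Smad7, Skil and Pmepa1 are commonly used as readouts of TGF-beta signalling, and Smad6 as one of BMP signalling in endothelium.

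Library totals were 17171850 to 18671217 counts in ECKO and 17632271 to 25062755 counts in f/f, and mitochondrial transcripts took 19.7% to 32.4% of them in ECKO and 11.5% to 23.5% in f/f. Levels are given as CPM, library-scaled counts after TMM normalization, which corrects for the make-up of each library, and as mean ± SD over 3 libraries. Tgfbr2 itself held 487 to 511 CPM in the libraries labelled ECKO, against 387 to 452 CPM in f/f (log2 fold change 0.22, edgeR adjusted p = 0.228). It was therefore not reduced at the gene level, where a transcript without the deleted part would still count, and directions are given for the libraries as labelled. All 12 LSEC markers listed were tested, and their summed level was 25650 to 31054 CPM in ECKO and 23822 to 27979 CPM in f/f, with 1 of the 12 (Pecam1) higher in ECKO. That call was lost in each of the 6 fits that left out 1 library (edgeR adjusted p = 0.0554 to 0.164) and under total count scaling (0.377), and DESeq2 called 3 of the 12 higher. The summed level of 18 stellate cell and fibroblast markers was 2342 to 2565 CPM in ECKO and 2926 to 4562 CPM in f/f, with 8 of the 18 lower in ECKO, Lum and Reln among them. Without ECKO replicates 1, 2 or 3 the count was 1, 4 and 3, and without f/f replicates 1, 2 or 3 it was 11, 3 and 2, while DESeq2 called 14 and total count scaling 13 lower. Lum passed in 1 and Reln in 2 of those 6 fits. Tcf21 passed in all 6, Cygb in 5 and Dcn in 4, while Col1a1, Col1a2 and Col3a1 passed in 1 each. Hepatocyte markers summed to 1110 to 2198 CPM in ECKO and 1100 to 1949 CPM in f/f. None of the 12 passed the test (2 higher and 0 lower at an unadjusted p under 0.05). DESeq2 called 2 of them higher, and 1 was higher with the replicate number as a block and without f/f replicate 1. Kupffer cell markers summed to 61.8 to 85.6 CPM in ECKO and 52.3 to 102 CPM in f/f, and none of the 9 tested passed. DESeq2 called 1 higher and 1 lower, total count scaling 1 lower, and the fit without f/f replicate 1 called 2 lower. Without the filter on low counts, and without ECKO replicate 2, 1 was higher. Other leukocyte markers summed to 9.29 to 19.2 CPM in ECKO and 26.9 to 50.5 CPM in f/f, with 3 of the 10 tested lower in ECKO. The count was 6 without f/f replicate 1 and 0 without any one of the other 5 libraries. DESeq2 called 6 lower, total count scaling 7 and limma-voom 0. Cholangiocyte and mesothelial markers summed to at most 87.8 CPM in ECKO and 151 CPM in f/f. Of these 8 genes, 1 (Wt1) was lower in ECKO, with 6 lower and 0 higher at an unadjusted p under 0.05. DESeq2 called 4 of them lower. The Wt1 call was lost in each of the 6 fits that left out 1 library (edgeR adjusted p = 0.0531 to 0.128). In such bulk samples, fewer cells of a type and less RNA per cell cannot be told apart.

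Among the 10 genes only Smad6 was called, at a higher level in ECKO libraries. That call was lost in every fit that left out 1 library. The SMADs that carry the signal did not pass the test. Of the 10 genes, 1 (Smad6) rose, none fell and 9 did not pass, by edgeR's quasi-likelihood test with Benjamini-Hochberg adjustment over all 13692 genes and a threshold of 0.05. The same rule called 4.03% of all genes tested, 1.24% higher and 2.79% lower. DESeq2 also called only Smad6 among the 10, where it called 9.63% of the genes it tested. At an unadjusted p under 0.05 the members held 2 (Smad6 and Smad7, both higher) and 0 lower, where all genes held 10.4% higher and 13.1% lower (23.5% in all). On TMM-scaled CPM the libraries of the groups did not overlap for 3 members, Smad6 and Smad7 higher and Smad5 lower. Of all genes, 15.7% lay wholly higher and 15.2% wholly lower (30.9% in all). The median log2 fold change was -0.01 over the 10 members and 0.01 over all genes, with 5 members above 0 and 5 below.

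**Figure D1:**
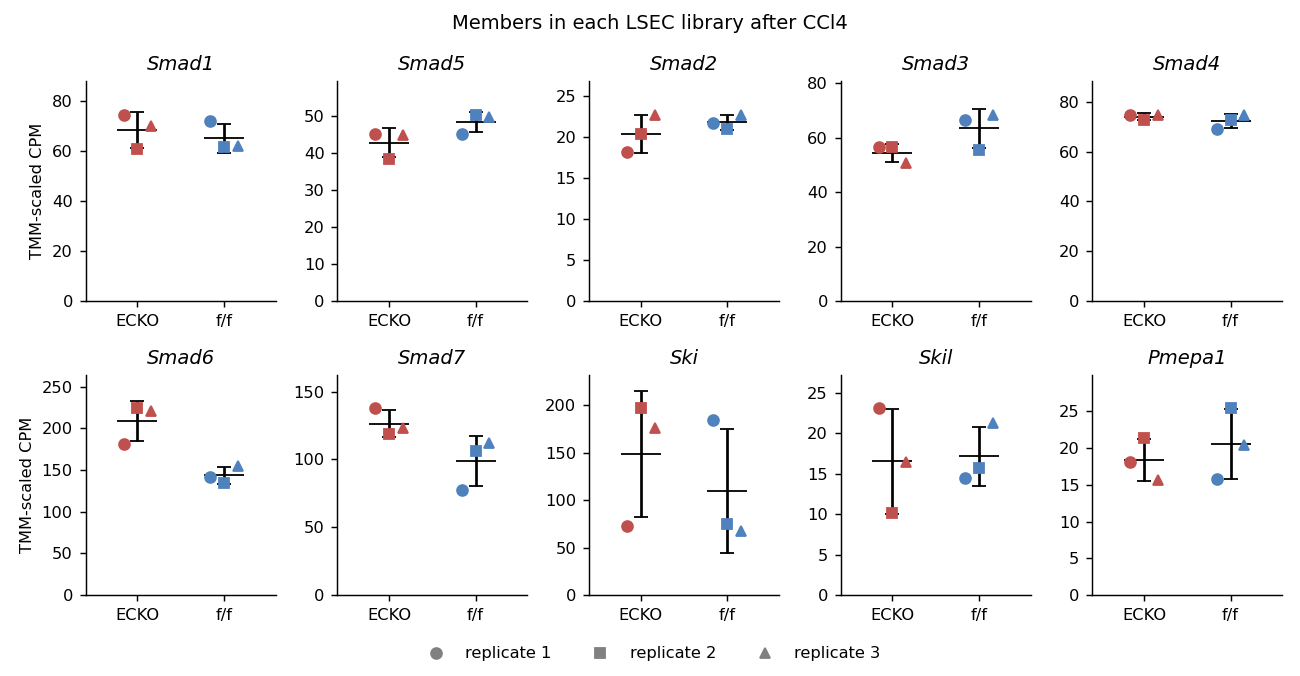
TMM-scaled CPM of the 10 members in each library, ECKO left and f/f right, with symbols for replicates and bars for the mean ± SD of 3 libraries. Smad6 and Smad7 lie higher in every ECKO library than in any f/f library, Smad5 lies lower, and Ski takes a high and a low level within each genotype.

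Smad6 (ENSMUSG00000036867, chromosome 9, 63953076 to 64022059, minus strand, mm10/GRCm38) encodes the inhibitory SMAD that acts mainly on BMP receptor signals. It had 181, 224 and 221 CPM in the ECKO libraries (2727, 3856 and 3862 counts), against 142, 135 and 154 CPM in the f/f libraries (3389, 2749 and 3729 counts). After TMM scaling, every ECKO library was above every f/f library. The means were 209 ± 23.8 CPM in ECKO and 144 ± 9.86 CPM in f/f, a 1.45-fold difference (log2 fold change 0.54, SE 0.12, 95% interval 0.27 to 0.81, edgeR adjusted p = 0.0476). The call rested on a narrow margin. It was lost without ECKO replicates 1, 2 or 3 (adjusted p = 0.0775, 0.104 and 0.140) and without f/f replicates 1, 2 or 3 (adjusted p = 0.0592, 0.123 and 0.133), while the log2 fold change stayed at 0.49 to 0.64. DESeq2 gave 0.53 (adjusted p = 0.00397) and limma-voom 0.54 (adjusted p = 0.0595). Scaling by total counts, under which the median of all genes lay at -0.22, gave 0.31 (adjusted p = 0.305). The call was also lost under RLE size factors (adjusted p = 0.0510) and with mitochondrial transcripts left out of the totals (log2 fold change 0.47, adjusted p = 0.0651). Set against the LSEC markers of its own library, Smad6 had 6.12, 8.73 and 7.13 CPM per 1000 CPM of summed markers in ECKO, against 5.06, 5.67 and 6.25 in f/f. On that scale, which was chosen after seeing the data, ECKO replicate 1 lay just below f/f replicate 3 and the log2 difference was 0.36 (exact permutation p = 0.2, two-sided).

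As the only member called, Smad6 is shown with its promoter, which runs from 250 bases before to 50 bases after the annotated start (RefSeq, GRCm38.p6, chr9:64022010-64022309, minus strand). Capitals mark an uninterrupted GTCTAGAC, the palindromic SMAD-binding element, whose first 4 bases lie before the annotated start and whose last 4 lie after it.
Smad6 promoter: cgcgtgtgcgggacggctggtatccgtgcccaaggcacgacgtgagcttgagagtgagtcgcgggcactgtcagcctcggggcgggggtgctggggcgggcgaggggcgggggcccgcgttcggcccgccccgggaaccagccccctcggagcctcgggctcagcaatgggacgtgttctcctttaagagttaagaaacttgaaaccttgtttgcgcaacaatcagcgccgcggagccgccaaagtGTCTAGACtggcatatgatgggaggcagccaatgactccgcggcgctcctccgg
Read on either strand, GTCTAGAC occurred in 0.213% of 32851 promoter windows of the same length (70 of them). That motif was searched for after the sequence had been seen. The shorter SMAD-binding element CAGAC (either strand), which 49.6% of windows held, and the GC-rich GGCGCC, which 11.9% held, were not in the Smad6 window. GTCTAGAC holds no copy of either of the shorter motifs. RefSeq promoter windows were matched for 5 of the 10 members (Smad1, Smad3, Smad5, Smad6 and Ski). GGCGCC was in the Ski window and in 2 of the 3 Smad5 windows, which overlap and hold the same copy. CAGAC was in the remaining Smad5 window, and neither motif in those of Smad1 and Smad3. Such matches describe letters in a window and not binding.

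Smad7, the inhibitory SMAD that blocks TGF-beta and BMP receptors alike, showed a smaller difference. It had 138, 119 and 123 CPM in ECKO, against 77.5, 107 and 112 CPM in f/f. The groups did not overlap, but f/f replicate 1 stood well below the other 2 f/f libraries. The log2 fold change was 0.36 (SE 0.15, 95% interval 0.01 to 0.70, edgeR adjusted p = 0.206), and it was 0.22 without f/f replicate 1 and 0.09 under total count scaling. Per 1000 CPM of summed LSEC markers, Smad7 stood at 4.64, 4.63 and 3.96 in ECKO, against 2.77, 4.47 and 4.55 in f/f, where the groups overlapped.

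Of the receptor-regulated SMADs, neither kind passed the test in either direction. Smad3, which binds DNA directly in the TGF-beta branch, had 56.5, 56.5 and 50.8 CPM in ECKO, against 66.7, 55.4 and 68.5 CPM in f/f. Its log2 fold change was -0.22 (SE 0.11, 95% interval -0.48 to 0.04, edgeR adjusted p = 0.282), and f/f replicate 2 lay among the ECKO libraries. Smad2, its partner in that branch, had 18.2, 20.4 and 22.7 CPM in ECKO, against 21.7, 21.0 and 22.8 CPM in f/f (log2 fold change -0.09, 95% interval -0.38 to 0.19, edgeR adjusted p = 0.669). The ranges of the groups overlapped for both genes.

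In the BMP branch, Smad5 had 45.2, 38.5 and 44.9 CPM in ECKO, against 45.3, 50.4 and 49.7 CPM in f/f. Its groups did not overlap, although ECKO replicate 1 and f/f replicate 1 nearly met, and its log2 fold change was -0.18 (95% interval -0.42 to 0.07, edgeR adjusted p = 0.347). Smad1 had 74.4, 60.6 and 69.9 CPM in ECKO, against 71.7, 61.5 and 61.8 CPM in f/f, with overlap (log2 fold change 0.07, 95% interval -0.20 to 0.34, edgeR adjusted p = 0.736). Under total count scaling Smad1 turned to -0.17, which lies above the median of -0.22 that all genes took there. Smad4, the common partner of both branches, was the steadiest of the 10, at 74.0 ± 1.29 CPM in ECKO and 72.1 ± 2.89 CPM in f/f (log2 fold change 0.04, 95% interval -0.16 to 0.23, edgeR adjusted p = 0.819). It, too, turned under total count scaling, to -0.21. A processed pseudogene lies antisense within the Smad4 locus (GENCODE M21). Without a stated strand setting, its reads cannot be told apart from those of Smad4. Within Smad5 lie 3 small RNA genes on the same strand, so a strand setting would not tell their reads from those of Smad5.

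**Figure D2:**
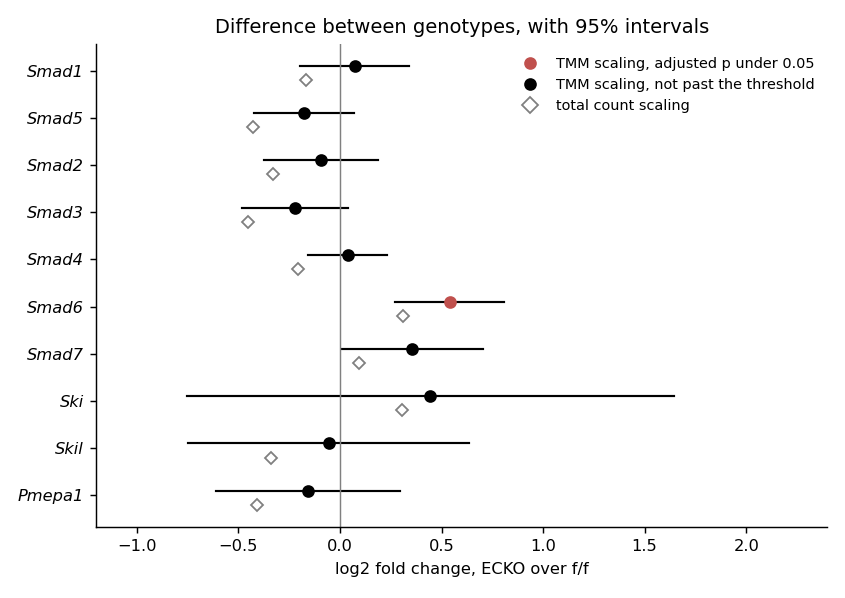
Log2 fold change of ECKO over f/f for each member with its 95% interval under TMM scaling (circles, red where the adjusted p is under 0.05) and under total count scaling (open diamonds). Smad6 at 0.54 is the only red point, and total count scaling moves every member downward, by more than the distance to 0 for Smad1 and Smad4.

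The repressors Ski and Skil varied widely between libraries of the same genotype. Ski, the corepressor that gave its family its name, had 72.9, 196 and 176 CPM in ECKO, against 184, 75.0 and 67.9 CPM in f/f. A low and a high level thus stood in each group, with ECKO replicate 1 and f/f replicates 2 and 3 low and ECKO replicates 2 and 3 and f/f replicate 1 high. The highest library was 2.69 times the lowest in ECKO and 2.71 times in f/f, on 1096 to 4408 counts per library. The log2 fold change of Ski was 0.44, with a 95% interval of -0.75 to 1.64 (edgeR adjusted p = 0.626). When 1 library was left out it ranged from 0.19 (without ECKO replicate 2) to 1.06 (without f/f replicate 1), with 0.78 without ECKO replicate 1, 0.31 without ECKO replicate 3, 0.23 without f/f replicate 2 and 0.20 without f/f replicate 3. Ski thus had the widest interval of the 10. The mitochondrial share was 32.4%, 19.7% and 23.7% in ECKO replicates 1 to 3 and 23.5%, 14.2% and 11.5% in f/f replicates 1 to 3, so that the low Ski libraries held both the highest share and the 2 lowest. Its part in the Ski values was not tested. As a description chosen after the values were seen, the genes whose centred log2 CPM lay nearest to Ski over the 6 libraries were Rbm43, Gm9917, Gga3 and Icam1, at root mean square distances of 0.21, 0.30, 0.30 and 0.31. Icam1, the adhesion molecule of inflamed endothelium, had 251, 399 and 300.4 CPM in ECKO, against 447, 154 and 163 CPM in f/f.

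Skil, the relative of Ski whose transcription TGF-beta induces, had 23.1, 10.1 and 16.4 CPM in ECKO, against 14.5, 15.8 and 21.2 CPM in f/f. The ECKO libraries spanned the f/f range on both sides, and the log2 fold change was -0.05 (95% interval -0.75 to 0.64, edgeR adjusted p = 0.926). Its sign turned to 0.21 without ECKO replicate 2 and to 0.14 without f/f replicate 3. Pmepa1, a membrane protein that sequesters receptor-regulated SMADs, had 18.1, 21.3 and 15.7 CPM in ECKO, against 15.8, 25.4 and 20.4 CPM in f/f. The groups overlapped (log2 fold change -0.16, 95% interval -0.61 to 0.29, edgeR adjusted p = 0.653), and without f/f replicate 2 the value was 0.02. Of the 3 feedback genes of the TGF-beta branch, Smad7 thus lay above 0 and Skil and Pmepa1 below it, and none passed.

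Levels of different genes were compared per length, on the FPKM values deposited by the authors, in which counts are divided by the length of the gene and the total of the library. Smad6 was the most abundant member in both groups, at 55.1 ± 10.9 FPKM in ECKO and 44.4 ± 6.22 FPKM in f/f. In each group its libraries lay above those of every other member. Between the groups Smad6 overlapped on this scale, with 42.9, 63.7 and 58.7 FPKM in ECKO, against 38.3, 44.2 and 50.8 FPKM in f/f. Ski came next by its mean, with 9.51 to 30.8 FPKM in ECKO and 12.3 to 27.5 FPKM in f/f, a range that overlapped that of Smad7 (14.8 to 15.4 FPKM in ECKO and 9.58 to 16.9 FPKM in f/f). In ECKO, Smad4, Smad1 and Smad3 followed at 12.0 ± 0.948, 10.3 ± 0.388 and 8.80 ± 0.948 FPKM with no overlap between neighbours. In f/f, Smad4, Smad3 and Smad1 stood at 13.8 ± 1.98, 12.0 ± 1.58 and 11.6 ± 0.273 FPKM and each overlapped the next, so that Smad3 and Smad1 stood in the other order there without being separated. Smad2, Pmepa1 and Smad5 lay between 2.62 and 4.05 FPKM in ECKO and between 2.70 and 5.23 FPKM in f/f with overlapping neighbours, and Skil was lowest at 0.716 ± 0.220 FPKM in ECKO and 0.907 ± 0.262 FPKM in f/f. The order was unchanged when FPKM was scaled by TMM.

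Smad6 alone made up 46.3%, 53.8% and 52.4% of the summed FPKM of the 7 SMADs in ECKO, against 43.1%, 41.5% and 43.2% in f/f. The shares of Smad5, Smad2, Smad3 and Smad4 were each lower in every ECKO library than in any f/f library. Shares add up to a fixed whole, so a higher share of one gene lowers those of the rest. Smad3, for example, took 8.21% ± 0.744 in ECKO and 11.6% ± 1.02 in f/f. The Smad7 share was 14.1% ± 1.66 in ECKO and 13.4% ± 2.26 in f/f, with overlapping libraries.

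**Figure D3:**
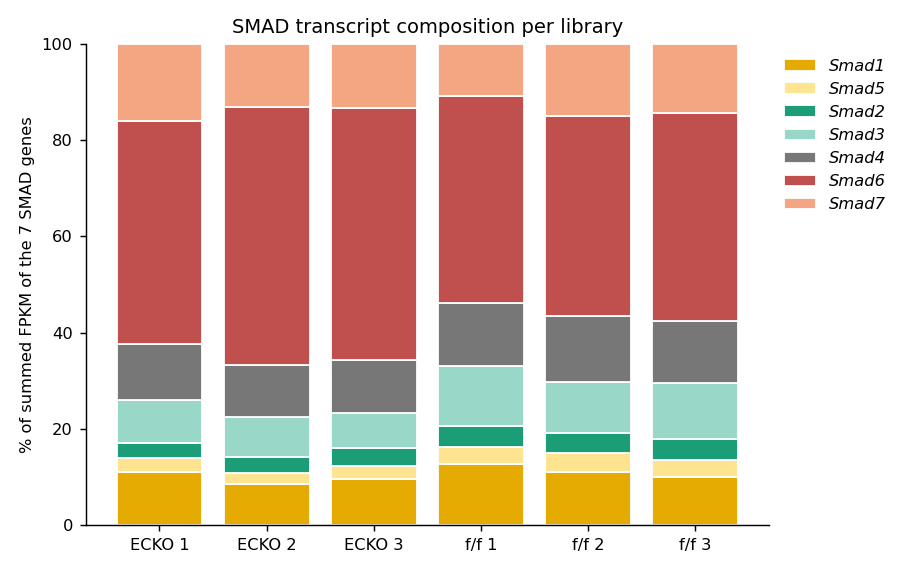
Share of each SMAD gene in the summed deposited FPKM of the 7 SMAD genes, 1 bar per library, ECKO libraries left and f/f libraries right. Smad6 (red) takes 46.3% to 53.8% in ECKO and 41.5% to 43.2% in f/f.

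Ratios between members of the same library do not depend on the scaling. With 3 libraries against 3, an exact permutation test cannot give a p below 0.1. The ratio of Smad6 to Smad1 plus Smad5 counts, an inhibitory SMAD over the SMADs whose signal it is known to limit, was 1.52, 2.26 and 1.93 in ECKO, against 1.21, 1.21 and 1.38 in f/f. All ECKO libraries were above all f/f libraries, and the difference of 0.57 on the log2 scale had the smallest p that the permutations can give (exact permutation p = 0.1, two-sided). The ratio of Smad6 to Smad7 was 1.32, 1.88 and 1.80 in ECKO, against 1.83, 1.27 and 1.37 in f/f, with overlap (log2 difference 0.16, exact permutation p = 0.6, two-sided). Here ECKO replicate 1 was low and f/f replicate 1 high, so the inhibitory SMADs did not keep a common ratio within a genotype. The ratio of Smad1 plus Smad5 to Smad2 plus Smad3, on FPKM, was 1.16, 0.926 and 1.11 in ECKO, against 0.953, 1.00 and 0.841 in f/f, with overlap (log2 difference 0.19, exact permutation p = 0.3, two-sided). That of Skil to Ski was 0.317, 0.0514 and 0.0935 in ECKO, against 0.0785, 0.210 and 0.313 in f/f (log2 difference -0.59, exact permutation p = 0.7, two-sided). Adjusted over these 4 ratios by Benjamini-Hochberg, the p-values were 0.4, 0.7, 0.6 and 0.7 in the order given.

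**Figure D4:**
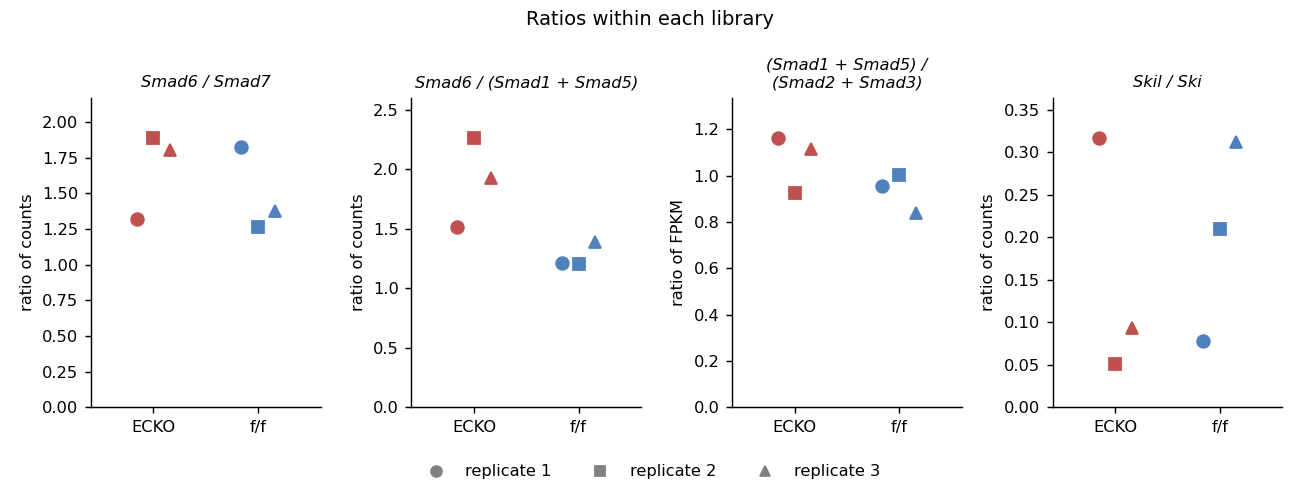
Ratios between members within each library, ECKO left and f/f right, on counts except for the third panel, which is on FPKM. The libraries of the 2 genotypes separate for Smad6 over Smad1 plus Smad5 and overlap in the other 3 panels.

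The genes of proteins that turn SMADs over or move them showed no call in the test as reported. Of 24 such genes, none rose or fell by edgeR under TMM scaling, with a median log2 fold change of -0.04. At an unadjusted p under 0.05 there were 0 higher and 1 lower, Usp11. After adjustment DESeq2 called 0 higher and 1 lower, limma-voom 0, and total count scaling 0 higher and 2 lower. Usp11, a deubiquitinase, had 98 to 116 counts in the ECKO libraries and 219 to 238 counts in the f/f libraries (log2 fold change -0.62, edgeR adjusted p = 0.0915). Among 19 nuclear partners and corepressors tested of 20 listed, none passed by edgeR, DESeq2 or limma-voom, with 0 higher and 2 lower, Tob1 among them, at an unadjusted p under 0.05 and a median of -0.21. Tob1, an antiproliferative protein that binds SMADs, had 15.2 ± 3.31 CPM in ECKO and 22.3 ± 3.03 CPM in f/f (log2 fold change -0.56, edgeR adjusted p = 0.132). Smad9, the remaining BMP-regulated SMAD, was scarce, with 9 to 30 counts in the ECKO libraries and 16 to 56 counts in the f/f libraries.

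Of 15 target genes of Smad1 and Smad5 that were tested, 1 rose, 1 fell and 13 did not pass. The median log2 fold change was 0.10 and turned to -0.15 under total count scaling. At an unadjusted p under 0.05 the list held 4 higher, Eng and Acvrl1 among them, and 2 lower. DESeq2 called 3 higher and 1 lower, limma-voom 1 higher and 0 lower, and total count scaling, with or without mitochondrial transcripts in the totals, 0 higher and 1 lower. Gata2, a transcription factor of blood and endothelial cells, rose to 56.3 ± 1.32 CPM in ECKO, against 41.1 ± 2.04 CPM in f/f (log2 fold change 0.45, SE 0.09, edgeR adjusted p = 0.0381), and under total count scaling it stood at 0.22 and did not pass (edgeR adjusted p = 0.394). Tmem100, a membrane protein induced by BMP9 and ALK1, fell to 0.967 ± 0.0847 CPM in ECKO, against 3.29 ± 0.831 CPM in f/f (log2 fold change -1.76, SE 0.31, edgeR adjusted p = 0.0309). Of the 6 fits that each left out 1 library, Gata2 and Tmem100 passed in the one without f/f replicate 1 (adjusted p = 0.0291 and 0.0128) and missed the threshold in the other 5 (0.0763 to 0.158 and 0.0717 to 0.123). The inhibitors of differentiation that BMP signals commonly induce did not pass. Id4 had 32.2 ± 6.79 CPM in ECKO and 21.0 ± 3.45 CPM in f/f (log2 fold change 0.62, edgeR adjusted p = 0.110). Every ECKO library lay above every f/f library for Id4. Id1 to Id3 are named here outside the rule for gene names. Id1 had 99.5 ± 17.1 CPM in ECKO and 112 ± 20.4 CPM in f/f, Id2 had 114 ± 13.3 CPM in ECKO and 102 ± 12.5 CPM in f/f, and Id3 had 516 ± 119 CPM in ECKO and 403 ± 114 CPM in f/f (edgeR adjusted p = 0.603, 0.476 and 0.417).

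Of 19 target genes of Smad2 and Smad3, 7 fell, none rose and 12 did not pass, with a median of -0.78, and 2 of the 7 (Col1a1 and Col1a2) stand on the stellate list as well, of whose 18 genes 8 fell. At an unadjusted p under 0.05 the list held 1 higher and 11 lower by edgeR. After adjustment DESeq2 called 0 higher and 10 lower, limma-voom 0 higher and 5 lower, and total count scaling 0 higher and 10 lower. The other 5 were Thbs1, Fn1, Ltbp2, Tgfbi and Itgb5. They are genes of matrix proteins, among them a member of the latent TGF-beta binding protein family, and of an integrin. Tgfbi, a secreted matrix protein, fell to 110 ± 23.3 CPM in ECKO, against 198 ± 8.44 CPM in f/f (log2 fold change -0.85, SE 0.16, edgeR adjusted p = 0.0325). Itgb5, an integrin chain, fell to 13.1 ± 3.01 CPM in ECKO, against 30.8 ± 8.63 CPM in f/f (log2 fold change -1.23, SE 0.26, edgeR adjusted p = 0.0456). Ctgf, a common TGF-beta readout, stood at 215 ± 22.3 CPM in ECKO and 152 ± 32.0 CPM in f/f and did not pass (log2 fold change 0.50, edgeR adjusted p = 0.132). The count of calls moved with the libraries used, while the median of the list stayed at -0.66 to -0.87 in the 6 fits that left out 1 library. The count in these fits ranged from 1 (without ECKO replicate 1) through 2 (without ECKO replicate 3 or f/f replicate 2), 3 (without f/f replicate 3) and 4 (without ECKO replicate 2) to 9 (without f/f replicate 1). Tgfbi was lost without ECKO replicates 1 and 3 and f/f replicates 2 and 3 (adjusted p = 0.103, 0.0668, 0.0690 and 0.112), and Itgb5 passed without f/f replicate 1 (0.0111) and with no other library left out (0.103 to 0.142). Fn1 was lost without ECKO replicate 1 (0.0686), and Thbs1 passed in all 6 of these fits. Ltbp2, Col1a1 and Col1a2 each passed only in the fit without f/f replicate 1. In the other 5 fits they missed the threshold (edgeR adjusted p = 0.0678 to 0.111, 0.0629 to 0.106 and 0.0505 to 0.0990). The part of the stellate transcripts in these values was not tested.

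Of 20 ligands and receptors tested, Bmp6, a BMP made by LSECs, rose and 19 did not pass, with a median of 0.04 (-0.21 under total count scaling). DESeq2 called 4 higher and 4 lower, limma-voom 1 higher and 0 lower, total count scaling 1 higher and 4 lower, and total count scaling without mitochondrial transcripts 0 higher and 1 lower. At an unadjusted p under 0.05 the list held 4 higher and 4 lower. Bmp6 had 225 ± 4.90 CPM in ECKO and 164 ± 10.1 CPM in f/f (log2 fold change 0.46, SE 0.09, edgeR adjusted p = 0.0396). Leaving out f/f replicate 1 kept the call (edgeR adjusted p = 0.0302), and leaving out any of the other 5 libraries lost it (0.0639 to 0.172). Under total count scaling Bmp6 stood at 0.22 and did not pass (edgeR adjusted p = 0.369). Eng and Acvrl1, the endothelial co-receptor and receptor of BMP9, stood at 2931 ± 253 CPM and 94.0 ± 12.3 CPM in ECKO and at 2123 ± 65.9 CPM and 66.0 ± 9.98 CPM in f/f, and neither passed (edgeR adjusted p = 0.0614 and 0.0891). Both also stand on the list of Smad1 and Smad5 targets, and both are among the genes higher at an unadjusted p under 0.05 on either list. Inhbb, an activin subunit, also lay above 0 without passing (log2 fold change 0.89, edgeR adjusted p = 0.0631). Below 0, Gdf2, which encodes BMP9, stood at 50.6 ± 12.0 CPM in ECKO and 85.4 ± 9.23 CPM in f/f (log2 fold change -0.75, edgeR adjusted p = 0.0651). Tgfb3, a TGF-beta ligand, and Bmpr1a, a type I BMP receptor, had log2 fold changes of -1.14 and -1.09 and did not pass either (edgeR adjusted p = 0.0604 and 0.0650). Immediate early genes, a sign of handling, summed to 8096 to 10376 CPM in ECKO and 5138 to 15668 CPM in f/f, and 1 of 16 (Nr4a1, lower) passed. The count of lower genes was 3 by DESeq2 and under total count scaling, 6 without f/f replicate 2, 0 without ECKO replicates 1 or 2 or f/f replicate 3, and 1 without ECKO replicate 3 or f/f replicate 1.

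**Figure D5:**
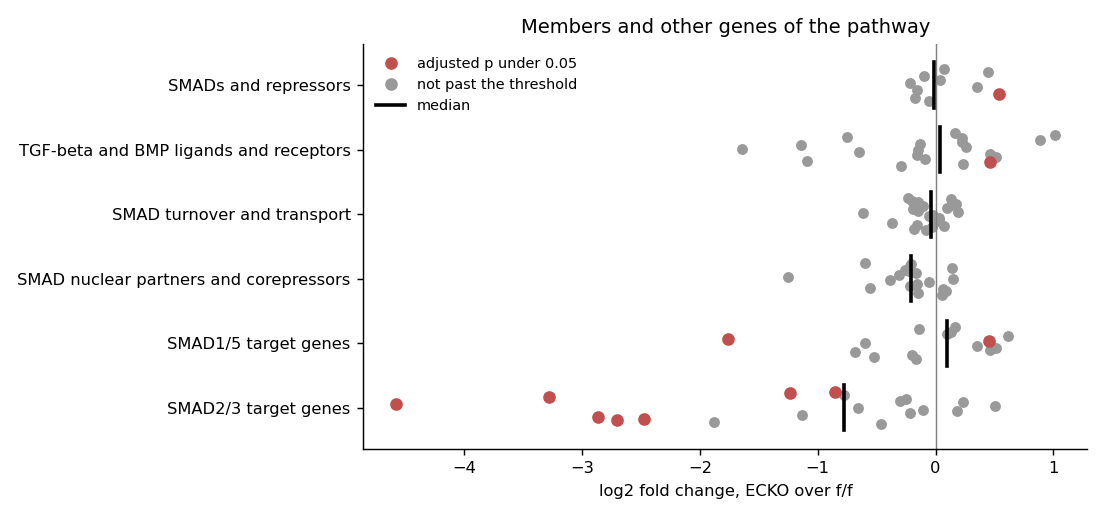
Log2 fold change of ECKO over f/f for the members and for 5 other lists of the pathway, 1 point per tested gene, red where the adjusted p is under 0.05, with black bars for list medians. The members span -0.22 to 0.54 around a median of -0.01, while the SMAD2/3 targets reach down to -4.58. That lowest point is Ltbp2, which had 10 to 20 counts in the ECKO libraries.

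The genes whose pattern over the 6 libraries lay nearest to that of Smad6, by the root mean square distance of centred log2 CPM, were Tigar, Rerg, Tcn2 and Prkch at distances of 0.04, 0.05, 0.06 and 0.06. Of these Prkch, a protein kinase C of endothelium, passed, with 291, 346 and 328 CPM in ECKO, against 218, 199 and 215 CPM in f/f (log2 fold change 0.61, edgeR adjusted p = 0.0270). Its call was kept when f/f replicate 1 was left out (0.0244) and lost when any of the other 5 libraries was (0.0607 to 0.115). All 4 genes were picked for closeness to Smad6 in these same libraries. Their differences between the groups follow from that choice and are no separate result. The genes nearest to Smad3, the member with the smallest p among those below 0, were Pyroxd2, Sc5d, Nt5c3b and Pusl1 at distances of 0.02 to 0.04. None of these 4 passed, and since they were chosen in the same way, that outcome is no separate result either.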

How the data were processed

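Gene expression was measured by mRNA sequencing in 6 LSEC libraries, 3 labelled ECKO and 3 labelled Tgfbr2f/f. The sample titles and column headers of the f/f libraries read WT. The authors deposited raw counts per gene, 1 column per library, and FPKM values, which equalled count over gene length and library total within a relative difference of 3.43e-06, per the file headers and the values. The submitters' processing notes name HISAT2 2.0.4 and StringTie 1.3.0, with mm10 and GRCm38.p4. The sources name no counter, annotation release, strand setting or filter. Counts were tested in R 4.3.3 with edgeR 4.0.16 (filterByExpr, minimum count 10 and total 15, TMM, robust quasi-likelihood F-test, genotype as the only term, two-sided, Benjamini-Hochberg over all genes tested). SE is the absolute log2 fold change over the square root of F. Alternatives used DESeq2 1.42.0, limma 3.58.1, other scalings, no filter, a replicate block and the removal of each library, and the script was tested on simulated data. Named genes are the members, Tgfbr2, listed genes past the threshold or with the smallest p, and those nearest in pattern to Smad6 and Smad3. The members and lists were chosen with earlier results of these data known. Symbols are those of the deposited table, with Ctgf for the listed Ccn2. Id1 to Id3, Smad9, Ctgf, Gdf2, Bmpr1a and the genes nearest to Ski are named outside that rule. A count of 0 would allow up to 3 counts, 0.124 to 0.200 CPM, and this floor covers counting error only. Some genes that the rule names are not reported here.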

Additional observations from a re-analysis of the deposited data

How the results depend on the processing

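The single call among the members, Smad6, was also made by DESeq2 and without the filter on low counts, and the count of members called was 0 under RLE size factors, total count scaling, total counts without mitochondrial transcripts, limma-voom and the replicate block, and 0 in each of the 6 fits without 1 library. Smad6 stayed above 0 in all of these, at 0.31 to 0.64 on the log2 scale. Over all genes, 552 were called in the test as reported, 1272 under total count scaling, 1484 by DESeq2, 315 by limma-voom, 416 with the replicate block and 35 to 1012 without 1 library. The 552 were 170 higher and 382 lower (69.2% lower), against 63 higher and 1209 lower under total count scaling and 109 higher and 478 lower without mitochondrial transcripts, and 59.6% to 75.7% were lower without 1 library. The direction of Smad1 and Smad4 turned under total count scaling (-0.17 and -0.21), without mitochondrial transcripts in the totals (-0.0017 and -0.040) and relative to summed LSEC markers (-0.10 and -0.14), an alternative chosen after seeing the data. Without 1 library, Skil ranged from -0.36 to 0.21 and Pmepa1 from -0.31 to 0.016. The causes were not tested, beyond the shift of -0.22 that total count scaling gave the median gene. The 4 ratios kept their direction without each library, although Skil over Ski came to -0.0061 without ECKO replicate 2. The replicate block cannot move these mean differences (0.57 for Smad6 over Smad1 plus Smad5). With the block, Smad6 stood at 0.54 (edgeR adjusted p = 0.0616), and 321 of its 416 calls were among the 552. The block gave 5 calls, against 7, among the Smad2 and Smad3 targets, 5, against 8, among the stellate markers, and 0 among the Smad1 and Smad5 targets, the ligands and receptors, the LSEC markers and the other leukocyte markers. The labels do not say that a shared replicate number marks a shared origin. Deviations of same-numbered libraries correlated at 0.10, 0.16 and -0.03, and not every library correlated best with its own number, so the numbers were not taken to pair the libraries. The lowest count of any member in a library was 174 (Skil, ECKO replicate 2).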
